A study of Homo sapiens with 6 samples.

Results

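The 10 genes described here carry azacitidine into the cell, activate it or remove it. They comprise 3 equilibrative nucleoside transporter genes (SLC29A1, SLC29A2, SLC29A3), 6 nucleoside and nucleotide kinase genes (UCK1, UCK2, UCKL1, DCK, CMPK1, NME1) and the cytidine deaminase gene CDA. They were listed by function and matched by symbol. All 10 were found among the 61487 gene rows of the count table.

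RNA was measured in azacitidine-resistant and azacitidine-sensitive K562 cells, with 3 libraries per group called biological replicates in the labels. K562 is an established human chronic myeloid leukaemia line that carries the BCR-ABL1 fusion. The resistant population was derived by keeping sensitive cells in rising drug concentrations for months, and whether it is 1 clone is not given in the sources used here. Both groups were grown in the same serum-containing medium, and no drug exposure before harvest is recorded. Whether the libraries came from separate cultures is not stated, and the p-values measure only how far these libraries spread, which may be technical.

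Azacitidine is a cytidine analogue. Nucleoside transporters bring it into the cell, uridine-cytidine kinases add its initial phosphate, and a nucleoside monophosphate kinase and nucleoside diphosphate kinases complete the triphosphate. The triphosphate enters RNA, and after reduction by ribonucleotide reductase the drug also enters DNA, where it traps DNA methyltransferases. Its deoxy relative decitabine is activated by deoxycytidine kinase, DCK, instead. Cytidine deaminase inactivates both drugs. In myeloid leukaemia cells, loss of kinase activity is a known route to resistance.

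The promoters of 3 of the genes are shown as reference sequence, because UCK2 and UCKL1 were the members that rose and CDA was the member without measurable RNA. RefSeq entries on GRCh38.p14 covered 9 of the 10 genes, all but SLC29A2. Each runs from 250 bases before to 50 bases after the transcript start, 5′ to 3′ on the strand of the gene, and capitals mark the dinucleotide CG, the site that DNA methyltransferases modify, which reads the same on both strands. UCK2 is shown at chr1:165827364-165827663 on the plus strand, UCKL1, by the first of its entries, at chr20:63956367-63956666 on the minus strand and CDA at chr1:20588847-20589146 on the plus strand.
UCK2: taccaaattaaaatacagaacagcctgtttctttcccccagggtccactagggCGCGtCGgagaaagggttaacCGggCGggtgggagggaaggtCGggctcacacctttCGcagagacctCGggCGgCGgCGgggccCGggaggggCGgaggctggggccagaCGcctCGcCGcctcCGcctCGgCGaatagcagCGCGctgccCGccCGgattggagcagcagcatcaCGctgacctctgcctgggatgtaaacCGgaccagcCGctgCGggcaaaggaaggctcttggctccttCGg
UCKL1: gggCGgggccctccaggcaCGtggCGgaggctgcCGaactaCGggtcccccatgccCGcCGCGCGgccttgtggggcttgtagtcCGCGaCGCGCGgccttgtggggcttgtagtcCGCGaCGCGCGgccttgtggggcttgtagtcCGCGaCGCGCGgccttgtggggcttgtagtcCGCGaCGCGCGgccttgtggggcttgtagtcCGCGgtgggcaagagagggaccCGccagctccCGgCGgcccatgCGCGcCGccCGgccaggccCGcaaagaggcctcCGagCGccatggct
CDA: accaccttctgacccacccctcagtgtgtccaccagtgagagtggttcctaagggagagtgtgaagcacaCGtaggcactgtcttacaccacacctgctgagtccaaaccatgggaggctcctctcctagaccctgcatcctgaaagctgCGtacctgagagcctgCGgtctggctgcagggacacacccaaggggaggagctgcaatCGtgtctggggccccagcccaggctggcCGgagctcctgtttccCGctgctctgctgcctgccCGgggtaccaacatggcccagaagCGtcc

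The UCK2 promoter held 28 CG dinucleotides, a number reached by 26.2% of the 35116 promoters of this length in the same table, whose median was 14. The UCKL1 promoter shown held 41, reached by 6.69% of promoters, while a second RefSeq entry for UCKL1, at chr20:63951138-63951437, held 11, reached by 54.7%. The CDA promoter held 8, reached by 60.7%. These counts describe the reference sequence. DNA methylation was not measured in these libraries.

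Total counts ranged from 33007642 to 37991708 in the resistant and from 34924828 to 43006918 in the sensitive libraries. Replicate 3 of each group separated from replicates 1 and 2 along principal component 2 (18.0% of variance), and mitochondrial ribosomal RNA took 8.54% of counts in resistant replicate 3 and between 12.8% and 17.8% in the other 5. Results are therefore also given without these libraries where that changed a call. The labels call K562 a myeloblast. The erythroid regulator gene GATA1 measured between 80.6 and 87.9 counts per 1000000 counts (CPM) in the resistant and between 99.4 and 129 CPM in the sensitive libraries, while the myeloblast genes MPO, ELANE and CD34 had at most 4 counts in any library. Among 7 myeloblast and granulocyte markers, 0 rose and 3 fell, with a summed level of 14.0 to 18.9 CPM in resistant and 221 to 252 CPM in sensitive libraries. Most of that sum was KIT and CD33. The 10 erythroid and K562 markers summed to 814 to 961 CPM in resistant and 658 to 725 CPM in sensitive libraries. Of these 2 were called higher (BCR and ABL1) and 0 lower, GATA1 being lower at an unadjusted edgeR p of 0.0173 only. BCR averaged 228 CPM in resistant and 132 CPM in sensitive cells, and ABL1 averaged 237 CPM in resistant and 145 CPM in sensitive cells. Both are the partners of the BCR-ABL1 fusion, so the higher sum cannot be read as a rise of erythroid genes. Of 5 lymphoid markers, 2 fell (CD3D and CD3E) and MS4A1 had no counts, with a summed level of 9.86 to 11.7 CPM in resistant and 24.5 to 103 CPM in sensitive libraries. The 5 fibroblast and epithelial markers, mostly EPCAM, summed to 97.6 to 127 CPM in resistant and 114 to 132 CPM in sensitive libraries, with COL1A2 higher. The part of these markers in the results below was not tested. In bulk RNA, fewer cells expressing a gene and less RNA per cell cannot be told apart.

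Of the 9 members with enough counts to be tested, UCK2 and UCKL1 rose in resistant cells, 0 fell and 7 did not pass (edgeR quasi-likelihood test, Benjamini-Hochberg adjusted p below 0.05 over all 20891 genes tested). At an unadjusted p below 0.05, DCK was also lower with edgeR, DESeq2 and limma-voom, and none of these tools called a member lower after adjustment. Over all genes tested, 9.83% were called higher, 13.1% lower and 23.0% in either direction, so a share of 22.2% of tested members was close to the background. Groups did not overlap for UCK2 and UCKL1 among the 9, against 40.1% of all genes tested. The median log2 fold change of the 9 members was 0.04, beside 0.03 over all genes tested.

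**Figure D1:**
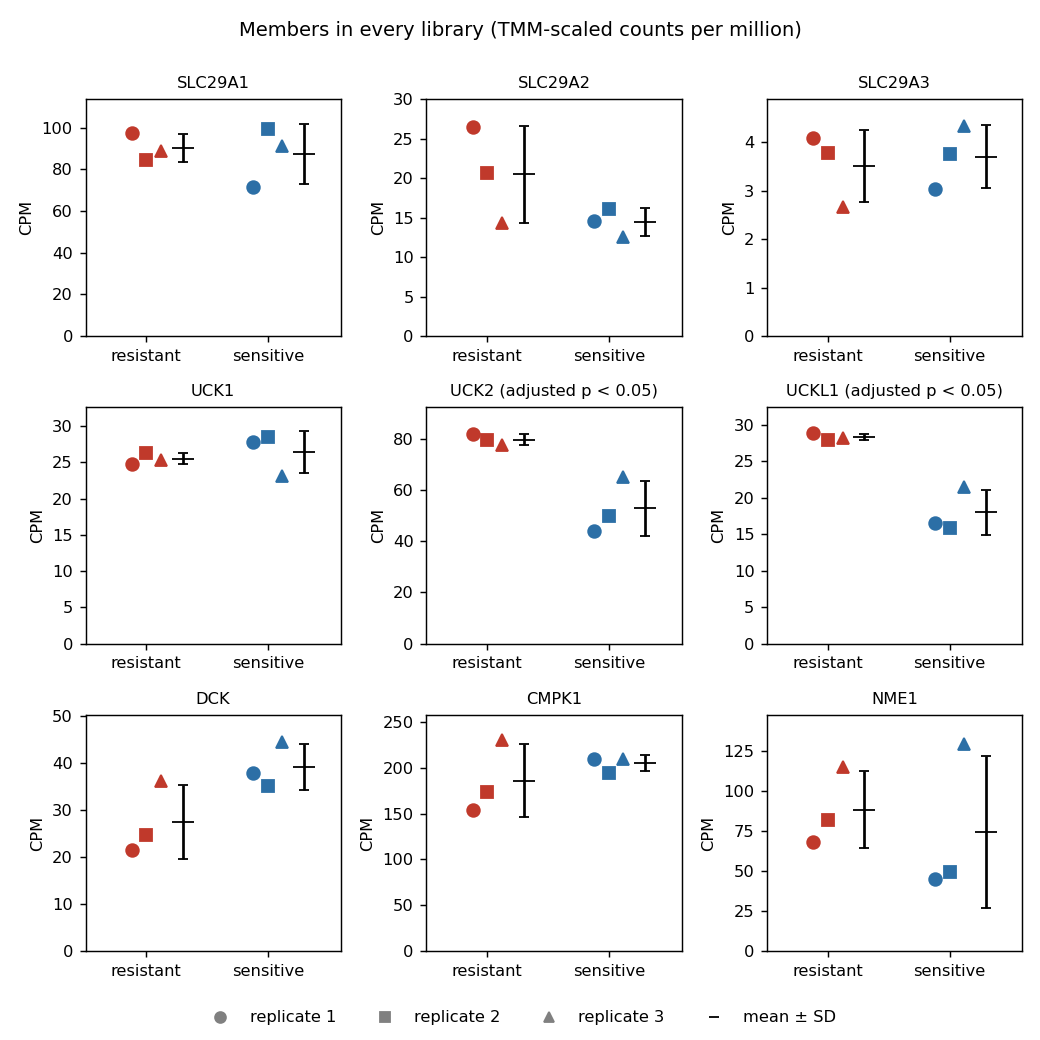
TMM-scaled CPM of the 9 tested members in each library, with resistant libraries in red on the left and sensitive libraries in blue on the right, symbols for replicates, and the mean ± SD of 3 libraries in black. For UCK2 the resistant libraries sit between 77.5 and 82.0 CPM, above the sensitive libraries at 43.8 to 64.8 CPM, and for NME1 replicate 3 is the highest library of both groups.

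Levels between genes were compared per kilobase of annotated exon, as CPM per kilobase. In resistant cells the order from high to low was CMPK1, NME1, SLC29A1, UCK2, UCK1, UCKL1, DCK, SLC29A2, SLC29A3 and CDA. CMPK1 stood at 48.4 ± 10.3 CPM per kilobase (SD, n = 3), UCK2 at 11.3 ± 0.318, DCK at 8.51 ± 2.41 and SLC29A3 at 0.646 ± 0.137. The library ranges of neighbours overlapped for NME1 and SLC29A1, for UCKL1 and DCK, and for DCK and SLC29A2. In sensitive cells DCK stood higher in the order, at 12.1 ± 1.49 CPM per kilobase, above UCK1 at 9.84 ± 1.08 and UCK2 at 7.47 ± 1.54. There the ranges of neighbours overlapped for NME1 and SLC29A1 and for each step from UCK1 down to SLC29A2. UCK2 was thus above DCK per kilobase by mean level in resistant cells and below it in sensitive cells, with overlapping ranges in resistant cells (10.97 to 11.6 for UCK2, 6.65 to 11.2 for DCK). This order depends on lengths that cover all annotated exons, 7067 bases for UCK2 and 3227 for DCK. Which transcripts were expressed was not measured, and by raw counts UCK2 was above DCK in every library.

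Transporters showed no called change. SLC29A1 encodes ENT1, the main equilibrative nucleoside transporter of the plasma membrane, and lies on chromosome 6 (44219505 to 44234151, GENCODE 29). It measured 97.5, 84.6 and 88.7 CPM in resistant replicates 1, 2 and 3, against 71.7, 99.5 and 91.5 CPM in sensitive replicates 1, 2 and 3. The groups overlapped, with the lowest and the highest value both in sensitive cells. The log2 fold change was 0.04 with a 95% interval from −0.32 to 0.41 (edgeR adjusted p = 0.874), which spans 0.800-fold to 1.33-fold.

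SLC29A2 encodes ENT2, a plasma membrane transporter of nucleosides and nucleobases, on chromosome 11 (66362521 to 66372214). Its levels were 26.5, 20.6 and 14.3 CPM in resistant replicates 1, 2 and 3 and 14.6, 16.1 and 12.6 CPM in the sensitive libraries. Resistant replicates 1 and 2 were above every sensitive library, and resistant replicate 3 lay among them. Its log2 fold change, 0.51 ± 0.23 (SE), had an interval from −0.01 to 1.02 (edgeR adjusted p = 0.145). Without resistant replicate 3 the gene was called higher, at 0.69 (edgeR adjusted p = 0.0191), as it was without both libraries numbered 3, at 0.61 (0.00442). Over all alternatives its adjusted p ranged from 0.00442 to 0.446. An antisense gene overlaps 10.3% of the SLC29A2 exon bases, and the counts of this overlap are uncertain.

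SLC29A3 encodes ENT3, a transporter of intracellular membranes, on chromosome 10 (71319258 to 71381423), and was the least abundant of the 3. It measured 4.10, 3.77 and 2.67 CPM in resistant and 3.03, 3.76 and 4.34 CPM in sensitive libraries. The ranges largely coincided, with a log2 fold change of −0.08 and an interval from −0.70 to 0.55 (edgeR adjusted p = 0.871). Across the 3 transporters, 0 were called in either direction by edgeR, DESeq2 or limma-voom, and the unadjusted p was below 0.05 for 1, SLC29A2, with DESeq2 only.

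UCK2 is the uridine-cytidine kinase with the greater activity towards azacitidine and lies on chromosome 1 (165827531 to 165911618). It had 82.0, 79.4 and 77.5 CPM in resistant replicates 1, 2 and 3, against 43.8, 49.7 and 64.8 CPM in sensitive replicates 1, 2 and 3. All 3 resistant libraries were above all 3 sensitive libraries, the resistant values lay close together, and sensitive replicate 3 came nearest to them. UCK2 rose by a log2 fold change of 0.59 ± 0.17 (SE), 1.51-fold with an interval from 1.16-fold to 1.96-fold (edgeR adjusted p = 0.0310). The call was made with all 6 libraries and without resistant or sensitive replicate 3, and was lost without resistant replicate 1 (0.0762), resistant replicate 2 (0.122), sensitive replicate 1 (0.164) or sensitive replicate 2 (0.143), with log2 fold changes from 0.45 to 0.76 over the 6 omissions.

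UCKL1 encodes uridine-cytidine kinase-like 1, a relative of the UCK enzymes, and lies near the end of the long arm of chromosome 20 (63939829 to 63956415). Its levels were 28.8, 28.0 and 28.2 CPM in resistant and 16.6, 15.8 and 21.5 CPM in sensitive replicates 1, 2 and 3. The resistant libraries differed by under 1 CPM and were all above the sensitive ones. UCKL1 rose by 0.66 ± 0.17 on the log2 scale (SE), 1.58-fold with an interval from 1.21-fold to 2.04-fold (edgeR adjusted p = 0.0195). This call was lost without resistant replicate 2 (0.0863), sensitive replicate 1 (0.107) or sensitive replicate 2 (0.112). An antisense gene on the opposite strand, UCKL1-AS1, shares 4.90% of the UCKL1 exon bases and had 89, 50 and 15 counts in resistant and 16, 19 and 12 in sensitive replicates 1, 2 and 3, against at least 527 counts of UCKL1 in every library.

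UCK1, the other uridine-cytidine kinase, lies on chromosome 9 (131523801 to 131531268). It measured 24.8, 26.4 and 25.4 CPM in resistant and 27.7, 28.5 and 23.1 CPM in sensitive replicates 1, 2 and 3. The resistant values lay inside the sensitive range. Its log2 fold change was −0.05 with an interval from −0.39 to 0.29 (edgeR adjusted p = 0.837). The interval of UCK2, from 0.21 to 0.97, overlapped it, and the difference between the 2 genes was not tested. The sign turned positive with upper quartile factors, library totals alone or length and GC offsets, at 0.11 or less.

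DCK, the kinase of deoxycytidine and of decitabine, lies on chromosome 4 (70992538 to 71030914). It had 21.4, 24.7 and 36.2 CPM in resistant replicates 1, 2 and 3, against 38.0, 35.1 and 44.5 CPM in sensitive replicates 1, 2 and 3. Resistant replicates 1 and 2 were below every sensitive library, and resistant replicate 3 lay among them. DCK had a log2 fold change of −0.51 ± 0.21 (SE), interval −0.98 to −0.04 (edgeR adjusted p = 0.109), and the gene was not called. It was called lower without resistant replicate 3 (−0.79, adjusted p = 0.00774), without both libraries numbered 3 (−0.68, 5.43e-04) and with the replicate number as a block (−0.54, 0.0201), out of a range of adjusted p from 5.43e-04 to 0.340 over all alternatives. MOB1B, which overlaps DCK on the same strand over 6.17% of the DCK exon bases, did not pass (0.51, adjusted p = 0.0720).

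CMPK1 encodes the monophosphate kinase that phosphorylates CMP and UMP, on chromosome 1 (47333797 to 47378839). It measured 154, 174 and 230 CPM in resistant and 210, 195 and 210 CPM in sensitive replicates 1, 2 and 3. Resistant replicate 3 was the highest of the 6 libraries and resistant replicates 1 and 2 the lowest. The log2 fold change was −0.14 with an interval from −0.55 to 0.27 (edgeR adjusted p = 0.631), and −0.32 without both libraries numbered 3, where it was called lower (0.0495).

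NME1, a nucleoside diphosphate kinase gene on chromosome 17 (51153536 to 51162428), spread widely between replicates. It had 68.5, 81.9 and 115 CPM in resistant replicates 1, 2 and 3, against 45.4, 49.4 and 130 CPM in sensitive replicates 1, 2 and 3. The libraries numbered 3 were the highest of their group in both groups, and sensitive replicate 3 was the highest of all. The log2 fold change was 0.24 with an interval from −0.59 to 1.08 (edgeR adjusted p = 0.680). It was 0.90 without sensitive replicate 3 (adjusted p = 0.0363) and 0.65 without both libraries numbered 3 (4.27e-04), where NME1 was called higher.

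The count of NME1 is uncertain because the annotation places a read-through gene, NME1-NME2, over 18.6% of the NME1 exon bases and 22.9% of those of its neighbour NME2. The read-through row had 0 counts in all 6 libraries. NME2, a close relative of NME1, had 2.29 ± 0.250 CPM in resistant and 1.88 ± 0.450 CPM in sensitive cells (SD, n = 3 each). How reads lying in several genes were treated is not given in the sources used here. The 3 rows summed gave a log2 fold change of 0.25 ± 0.37 (SE; edgeR adjusted p = 0.673). This sum had to follow NME1, which had 10131 counts over the resistant and 8336 over the sensitive libraries. NME2 had 261 and 209. Reads assigned to none of these rows would be missing from the sum too, so it cannot settle the uncertainty.

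CDA, the deaminase that inactivates azacitidine, lies on chromosome 1 (20588948 to 20618908). It had 0 counts in all 3 resistant libraries and 2, 0 and 0 counts in sensitive replicates 1, 2 and 3. A count of 0 allows up to 3 counts of the library total, between 0.0790 and 0.0909 CPM in the resistant libraries, which covers counting error only. No difference was detectable at this depth.

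**Figure D2:**
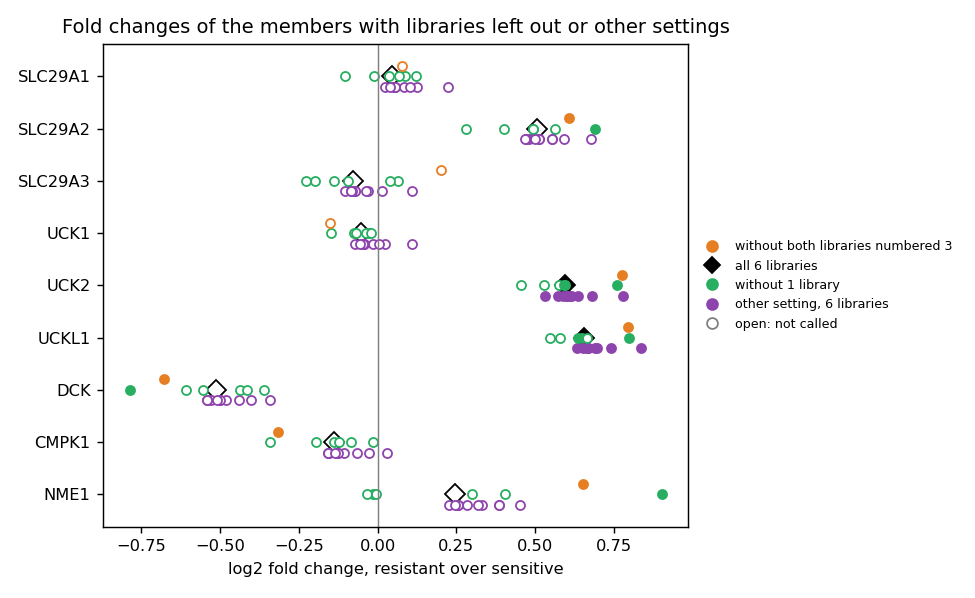
Log2 fold change, resistant over sensitive, of each tested member with all 6 libraries (black diamonds), without both libraries numbered 3 (orange), without 1 library (green) and with other settings on 6 libraries (purple). Filled symbols were called at an adjusted p below 0.05. UCK2 and UCKL1 stay positive throughout, between 0.45 and 0.84, DCK stays negative, and NME1 runs from −0.03 to 0.90.

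Ratios of raw counts within a library do not depend on scaling between libraries. There were 3.82, 3.22 and 2.14 UCK2 counts per DCK count in resistant replicates 1, 2 and 3, against 1.15, 1.42 and 1.46 in sensitive replicates 1, 2 and 3. The groups did not overlap, and resistant replicate 3 was nearest to the sensitive libraries. On the log2 scale this ratio was 1.57 ± 0.43 in resistant and 0.42 ± 0.18 in sensitive cells (SD, n = 3 each), 2.23-fold higher in resistant cells, and leaving out single libraries gave differences from 0.97 to 1.39. The ratio was chosen with the 2 genes' levels known and was not tested.

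UCK2 also stood higher relative to UCK1, with 3.31, 3.01 and 3.06 counts per UCK1 count in resistant and 1.58, 1.74 and 2.81 in sensitive replicates 1, 2 and 3. Sensitive replicate 3 was again close to the resistant libraries. By contrast, UCKL1 had 0.351, 0.352 and 0.364 counts per UCK2 count in resistant and 0.379, 0.319 and 0.332 in sensitive libraries, and these groups overlapped. Counts per gene scale with exon length, so each ratio is read between libraries only.

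**Figure D3:**
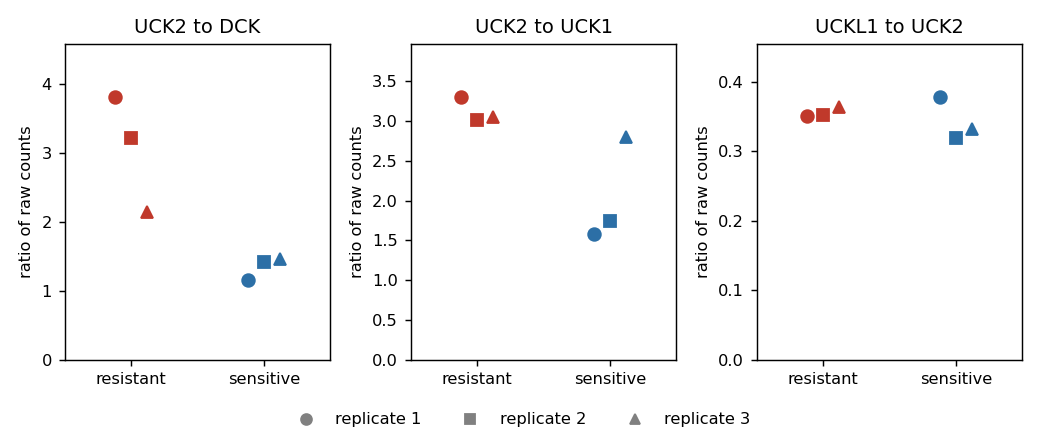
Ratio of raw counts of 2 kinase genes in each library, resistant (red, left) and sensitive (blue, right), with a symbol per replicate and axes from 0. The UCK2 to DCK ratio is 2.14 to 3.82 in resistant and 1.15 to 1.46 in sensitive libraries, while the UCKL1 to UCK2 ratio overlaps between groups.

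The position of the members was examined because UCKL1 lies in a distal stretch of 20q already seen as raised in these same libraries. A high share of raised neighbours around UCKL1 was thus known beforehand. The share below describes that stretch and is no separate evidence for it. The neighbours named below were chosen after their values were seen. Among 34 other tested genes within 1 Mb of UCKL1, 15 were called higher and 0 lower with edgeR, 44.1% against 9.83% of all genes, and 32 of 34 had a positive log2 fold change. At an unadjusted p below 0.05, 1 was lower, and DESeq2 called 1 lower and limma-voom 0. Their median log2 fold change was 0.73, beside 0.66 for UCKL1 itself. ZNF512B, whose start site lies 13.4 kb from that of UCKL1, rose, with 45.8 CPM in resistant and 21.5 CPM in sensitive cells. The count of higher neighbours was 9 without resistant replicate 2, 9 without sensitive replicate 1 and 8 without sensitive replicate 2.

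UCK1 differed from its surroundings. All 20 other tested genes within 1 Mb had a positive log2 fold change, from 0.01 to 5.06 with a median of 0.77, and 7 were called higher (35.0% against 9.83% of all genes), while UCK1 itself stood at −0.05, below every one of them. The called neighbours included ABL1, the kinase gene of the BCR-ABL1 fusion, with 237 CPM in resistant and 145 CPM in sensitive cells, NUP214, a nuclear pore gene, with 523 CPM in resistant and 293 CPM in sensitive cells, and FAM78A. All called neighbours lay on the side of UCK1 towards ABL1. The number called was 4 without resistant replicate 1, 4 without resistant replicate 2 and 12 without resistant replicate 3, and within 2 Mb the median was 0.18 over 54 genes. Whether DNA copy number moved with these stretches was not tested.

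Within 1 Mb of UCK2, 0 of 11 tested genes were called lower (2 at an unadjusted p below 0.05) and the median log2 fold change was −0.17, beside 0.59 for UCK2. TMCO1, which overlaps the start of UCK2 on the opposite strand over 3.18% of its exon bases, had a log2 fold change of −0.24 (edgeR adjusted p = 0.517). Within 1 Mb of DCK, all 5 tested genes had a positive log2 fold change with a median of 0.23, and 0 were called with edgeR, 1 at an unadjusted p below 0.05. For CMPK1 on 1p, 1 of 18 neighbours was called higher and 4 lower, with a median of −0.07.

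**Figure D4:**
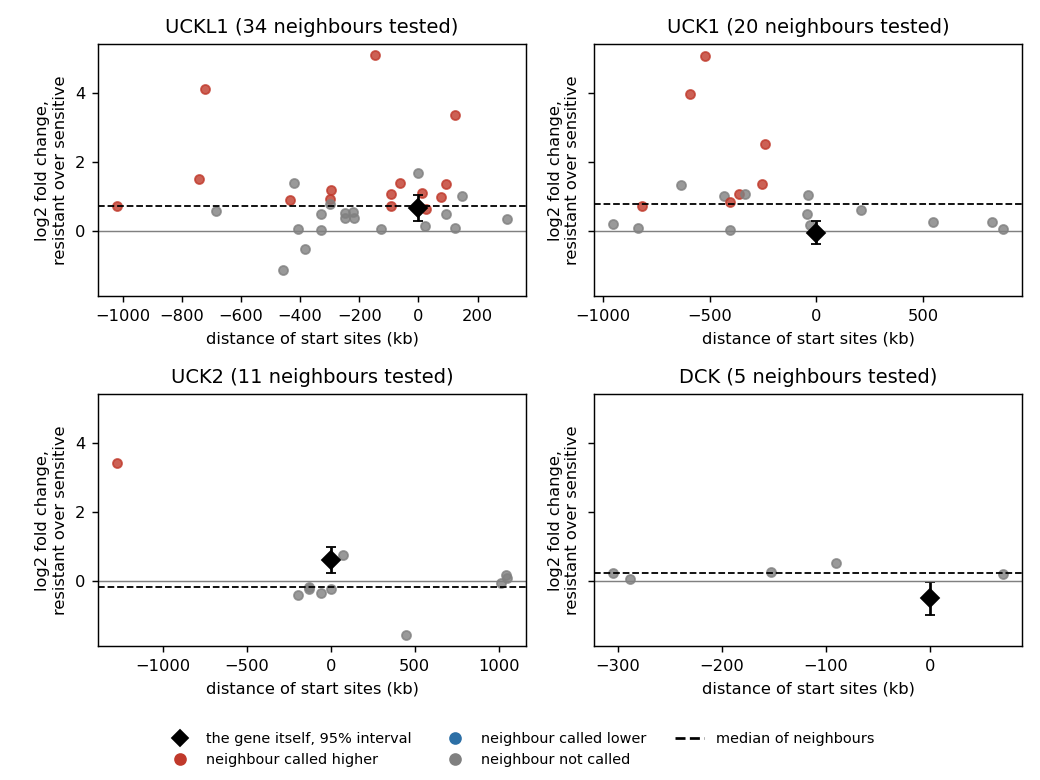
Log2 fold change, resistant over sensitive, of every tested gene within 1 Mb of UCKL1, UCK1, UCK2 and DCK against the distance between start sites in kb along the chromosome. The black diamond is the named gene with its 95% interval, red points were called higher, grey points were not called, and the dashed line is the median of the neighbours. UCKL1 lies near its neighbours' median (0.73), and UCK1 lies below all 20 of its neighbours.

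Patterns most like those of 3 members over the 6 libraries were sought among 8859 other named genes, as the smallest root mean square difference between centred log2 CPM profiles. For UCK2 these were MTHFD1, MESD and TRA2A, with differences of 0.0543, 0.0547 and 0.0591. For DCK they were HDDC2, KIF2C and NFU1, at 0.0245, 0.0375 and 0.0389, and for SLC29A1 they were WDR55, FUT11 and GVQW3, at 0.0546, 0.0765 and 0.0776.

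Genes acting beside the members were taken from 6 lists with 40 genes, 36 of them tested. In resistant cells 2 rose, 10 fell and 24 did not pass, or 33.3% called against 23.0% of all genes, with a median log2 fold change of −0.33 against 0.03 over all genes. With library totals alone in place of TMM factors the split was 4 higher and 5 lower. Of the 12 calls, 4 were kept with each library left out in turn (CTPS1, NME7, NT5M and UPP2), and the other 8 were lost without at least 1 library.

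Among the other kinases, 5 of 9 tested fell and 0 rose with edgeR and with DESeq2, against 13.1% lower over all genes. With limma-voom 4 were lower and 0 higher, CMPK2 being lost (adjusted p = 0.0566), while NME4 was higher at an unadjusted p below 0.05 only. TK1, the cytosolic thymidine kinase of dividing cells, had 74.99, 87.5 and 89.5 CPM in resistant and 129, 153 and 113 CPM in sensitive replicates 1, 2 and 3, and fell by 0.65 on the log2 scale (edgeR adjusted p = 0.0185). Its mitochondrial counterpart TK2 fell by 0.80, NME3 by 0.92 and NME7 by 1.02. CMPK2, the mitochondrial nucleotide kinase, had 17.4 ± 3.95 CPM in resistant and 36.3 ± 17.2 CPM in sensitive cells, with overlapping groups and the highest value in sensitive replicate 3. Calls were lost for TK1 without resistant replicate 1 (adjusted p = 0.0661), resistant replicate 2 (0.0854), sensitive replicate 1 (0.0607) or sensitive replicate 2 (0.0870). TK2 and CMPK2 also each lost theirs without 4 of the 6 libraries, and NME3 without sensitive replicate 2 (0.0545).

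Breakdown enzymes gave 3 lower and 0 higher among 14 tested, also with DESeq2 and limma-voom, and 0 were higher at an unadjusted p below 0.05. That is 21.4% called, close to the 23.0% of all genes. DCTD, which deaminates dCMP, had 52.6, 63.2 and 62.2 CPM in resistant and 87.3, 94.9 and 104 CPM in sensitive replicates 1, 2 and 3. The groups did not overlap, and DCTD fell by 0.69 ± 0.15 on the log2 scale (edgeR adjusted p = 0.00883, 0.0514 without resistant replicate 2). NT5M, a mitochondrial nucleotidase, had 8.89, 8.17 and 9.36 CPM in resistant and 34.9, 28.1 and 19.0 CPM in sensitive libraries, and fell 3.10-fold (adjusted p = 8.25e-04). UPP2, a uridine phosphorylase, had 2 counts in resistant and 60 in sensitive libraries and was called lower (adjusted p = 0.00527). SAMHD1, which hydrolyses deoxynucleotide triphosphates, measured 12.9 ± 1.25 CPM in resistant and 10.8 ± 2.54 CPM in sensitive cells and was not called (adjusted p = 0.428).

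Ribonucleotide reductase, which makes the deoxy form of the drug's diphosphate, has the large subunit gene RRM1 and the small subunit genes RRM2 and RRM2B. RRM2B fell to 41.5 ± 10.6 CPM in resistant cells, against 65.9 ± 4.47 CPM in sensitive cells, a call kept only without resistant replicate 3 among the single omissions. RRM1, at 286 ± 81.3 CPM in resistant and 363 ± 34.1 CPM in sensitive cells, and RRM2, at 178 ± 19.4 CPM in resistant and 237 ± 45.1 CPM in sensitive cells, did not pass with all libraries. RRM1 was called lower without resistant replicate 3 (−0.62, adjusted p = 0.0234), and both were called lower without both libraries numbered 3 (−0.53 and −0.63).

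Of 5 genes of pyrimidine and CTP synthesis, 2 rose and 0 fell with edgeR, DESeq2 and limma-voom, against 9.83% higher and 13.1% lower over all genes. CTPS2 was lower at an unadjusted p below 0.05 only. CTPS1, a CTP synthase, had 87.7, 68.9 and 66.5 CPM in resistant and 33.6, 40.0 and 48.5 CPM in sensitive replicates 1, 2 and 3. Its groups did not overlap and it rose 1.83-fold (adjusted p = 0.00750). CAD, the enzyme that begins pyrimidine synthesis, rose by a log2 fold change of 0.58, with 168, 123 and 116 CPM in resistant and 78.7, 100.5 and 92.4 CPM in sensitive libraries (adjusted p = 0.0471). The CAD call was lost in 5 of the 6 omissions, up to 0.203 without sensitive replicate 1, and was kept without resistant replicate 3.

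Other nucleoside transporter genes were scarce. SLC29A4, which encodes a monoamine and adenosine transporter, fell to 2.76 ± 0.0455 CPM in resistant cells, against 5.69 ± 2.23 CPM in sensitive cells (adjusted p = 0.0405), a call lost in 4 of the 6 omissions and with limma-voom (0.0695). The concentrative transporter genes SLC28A1, SLC28A2 and SLC28A3 had 15, 24 and 0 counts over the resistant and 0, 24 and 6 counts over the sensitive libraries and were not tested. Most SLC28A1 counts came from 1 library, with 2, 0 and 13 in resistant replicates 1, 2 and 3. The drug's targets did not pass, with 0 of 4 called by edgeR, DESeq2 or limma-voom and 0 at an unadjusted p below 0.05. DNMT1, the maintenance DNA methyltransferase, measured 244 ± 15.9 CPM in resistant and 224 ± 5.77 CPM in sensitive cells, with a log2 fold change of 0.13 and an interval from −0.21 to 0.47. TRDMT1, an RNA cytosine methyltransferase, measured 19.2 ± 1.75 CPM in resistant and 23.1 ± 1.28 CPM in sensitive cells (adjusted p = 0.248).

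**Figure D5:**
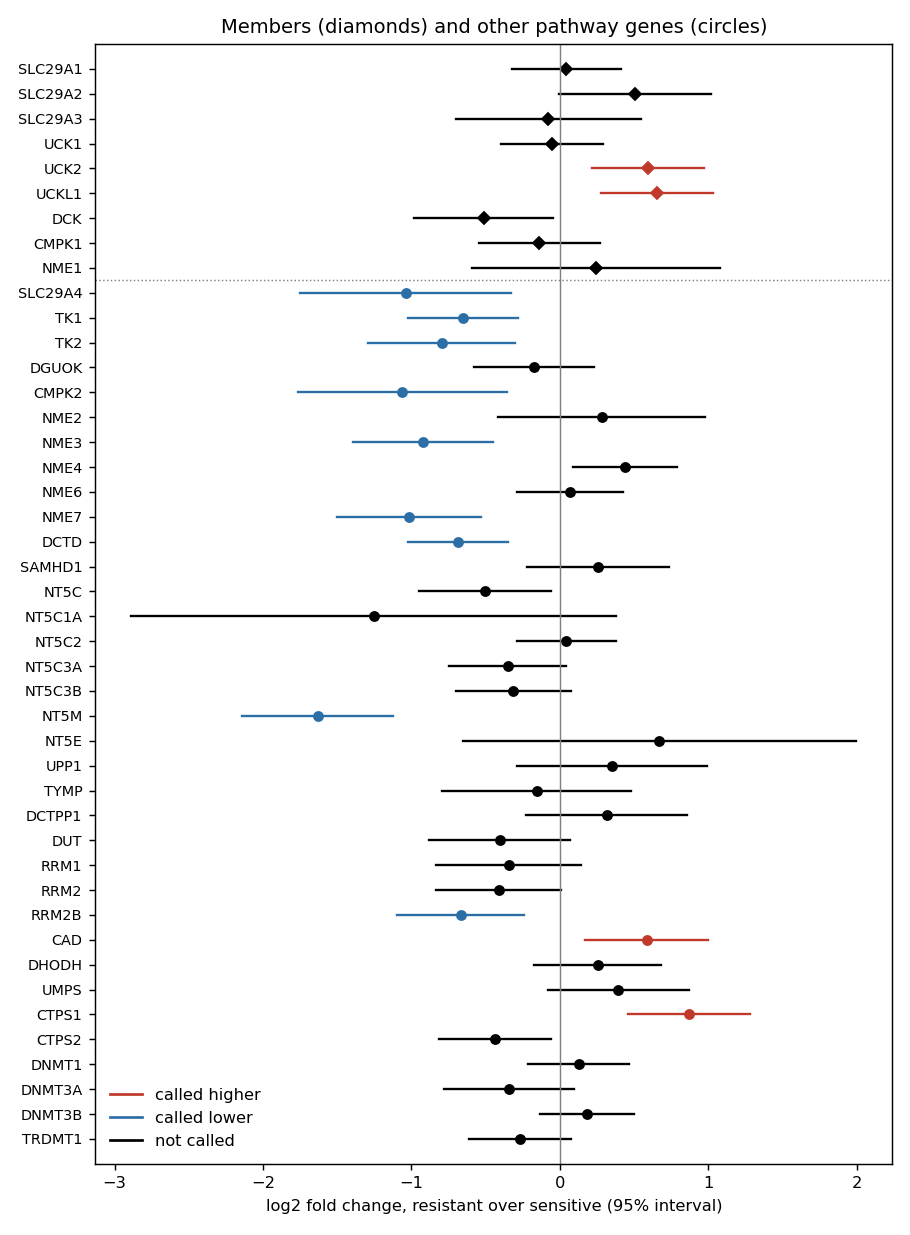
Log2 fold change, resistant over sensitive, with 95% intervals for the 9 tested members (diamonds, above the dotted line) and 35 of the 36 tested genes acting beside them (circles). UPP2, with 2 counts in resistant cells, is not drawn. Red marks genes called higher, blue genes called lower and black genes not called. UCK2, UCKL1, CAD and CTPS1 are red, and 9 circles are blue.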

How the data were processed

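Total RNA of resistant and sensitive K562 cells was depleted of ribosomal RNA, made into stranded libraries and sequenced in pairs on a NovaSeq, per the labels' protocols. The authors deposited raw counts per Ensembl gene. Trimmomatic 0.39, HISAT2 2.2.1, featureCounts and Subread 2.0.3 on GRCh38 are named per the submitters' processing notes. Annotation release, strand setting and treatment of reads in several genes: not given in the sources used here, so overlapping genes are uncertain. Positions, exon lengths and overlaps come from GENCODE 29 (GRCh38), which may differ from the authors' release, and promoters from RefSeq (GRCh38.p14).

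Genes passing filterByExpr in edgeR 4.0.16 (R 4.3.3) received TMM factors, and a robust two-sided quasi-likelihood fit compared the groups over all 6 libraries. CPM uses the scaled totals. The SE is the fold change's size over the square root of F, and intervals are 95%. Adjusted p-values are over the 20891 genes tested with all libraries, and in each alternative over the genes that passed its own filter; p-values called unadjusted are not corrected. Alternatives used DESeq2 1.42.0, limma-voom 3.58.1, other scalings and filters, a replicate block and omitted libraries. The test was also run on simulated counts, drawn independently for each gene and library. These lack the separation of replicate 3, so they do not show how the test behaves on these libraries. Named were all 10 members, pathway genes at an adjusted p below 0.05 and NME2, RRM1, RRM2, SAMHD1, TK1, DNMT1 and TRDMT1 whatever their value, with the 3 genes most like UCK2, DCK and SLC29A1 each. NME4, CTPS2, SLC28A1, SLC28A2, SLC28A3, GATA1, MOB1B, TMCO1 and neighbouring genes were named after their values were seen. The members, lists and tests were chosen with earlier results of these data known. The neighbour window of 2 Mb, length and GC offsets, and the summed NME row were added after the data were seen.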

Additional observations from a re-analysis of the deposited data

How the results depend on the processing

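UCK2, UCKL1 and SLC29A2 stayed positive and DCK negative under every alternative run. Called higher and lower over the whole table were 2054 and 2741 genes with all libraries, between 1051 and 3327 higher and between 1677 and 3718 lower with single libraries left out, 4645 and 5021 without both libraries numbered 3, 938 and 1586 at an adjusted p below 0.01, and 3041 and 2118 with library totals alone, where all genes tested had a median of 0.20. Members called higher numbered 0 (without resistant replicate 2, sensitive replicate 1 or sensitive replicate 2) to 3 (without resistant or sensitive replicate 3) with single libraries left out, and called lower 0 to 1. Without both libraries numbered 3 there were 4 higher and 2 lower, and at an adjusted p below 0.01 there were 0 higher. The other pathway genes gave 1 to 2 higher and 4 to 14 lower with single libraries left out, 5 and 17 without both libraries numbered 3, 4 and 5 with library totals alone, 1 and 4 at an adjusted p below 0.01, and 1 higher with length and GC offsets.

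Same-numbered libraries had positive correlations of their deviations, 0.202, 0.0850 and 0.299 for numbers 1, 2 and 3. Between differently numbered libraries the correlations ran from −0.312 to 0.23. The labels number the replicates without naming a pairing, and these values do not settle whether one exists. The main fit took no pairing. With the replicate block 2859 genes were called higher and 3582 lower over the whole table. In that fit 1 member, DCK, was called lower and 4 other pathway genes higher.

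Neighbours of UCK1 called higher ranged from 4 to 12 with single libraries left out, and were 12 (and 1 lower) without both libraries numbered 3, 13 with no filter and 4 at an adjusted p below 0.01. Neighbours of UCKL1 called higher ranged from 8 to 17, with 0 to 2 lower, with single libraries left out, were 18 with upper quartile factors, library totals alone or DESeq2, and were 8 at an adjusted p below 0.01. Called lower there were 2 without both libraries numbered 3, 1 with no filter and 1 with DESeq2. The log2 ratio differences kept their sign: UCK2 to UCK1 between 0.50 and 0.91, UCKL1 to UCK2 between 0.01 and 0.13 with single libraries left out.

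Uncalled members changed sign near 0. With single libraries left out, SLC29A1 ran from −0.10 (without sensitive replicate 1; −0.011 without resistant replicate 1) to 0.12, SLC29A3 from −0.23 to 0.064 (without resistant replicate 3; 0.039 without sensitive replicate 3), and NME1 from −0.035 (without sensitive replicate 1; −0.016 without resistant replicate 3, −0.0059 without sensitive replicate 2) to 0.90 (without sensitive replicate 3). SLC29A3 was 0.013 with upper quartile factors, 0.11 with library totals alone and 0.20 without both libraries numbered 3. UCK1 was 0.023 with upper quartile factors, 0.11 with library totals alone and 0.0049 with length and GC offsets, and CMPK1 was 0.028 with library totals alone. The cause was not tested.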
